A study of Mus musculus with 4 samples.

Results

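The nuclear-encoded subunits of the mitochondrial respiratory chain and ATP synthase were followed in RNA from epithelial cells of mouse colon. Members were the genes whose symbol starts with Ndufa, Ndufb, Ndufc, Ndufs or Ndufv and a digit, the 4 Sdh genes, the Uqcr genes, Cyc1, the Cox4 to Cox8 genes and the Atp5 genes, without pseudogenes named -ps. They came to 80 of the 25796 genes listed, 36 named for complex I, 4 for complex II, 9 for complex III, 14 for complex IV and 17 for complex V. For each gene the transcript with the highest mean over the 4 libraries was kept. The choice by name used no measured difference between the groups.

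There were 2 libraries labelled Ythdf1 KO and 2 labelled WT. Ythdf1 encodes a cytoplasmic protein that binds N6-methyladenosine (m6A) in mRNA. All 4 are inputs of an m6A immunoprecipitation, that is, total RNA before the antibody step, from epithelium shaken off colon pieces in EDTA, DTT and a ROCK inhibitor. The labels name the colon of mouse and the genotype. For strain, age, treatment and knockout allele, nothing is stated in the sources used here, nor do these say that libraries of 1 group stem from different animals. The p-values therefore reflect the spread among the 4 libraries alone, which may be technical.

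Values are normalised read counts, which are whole reads divided by 1 size factor per library, and 1 read stood for 0.969 and 0.827 in Ythdf1 KO 1 and 2 and for 1.13 and 1.01 in WT 1 and 2. Recovered reads, on the kept transcript of each gene, ranged from 21686140 to 30951138 per library. Ythdf1 itself had normalised read counts of 1752 and 1737 in the libraries labelled Ythdf1 KO, against 1088 and 775 in WT (log2 difference 0.92 ± 0.28 SE, limma-trend adjusted p = 0.759), with q = 0.0145 in the authors' deposited table, so directions below follow the labels and not a checked genotype. Of the markers fixed for colon epithelium, all 12 were listed, and Epcam, the epithelial adhesion molecule, had 31627 and 33790 in Ythdf1 KO 1 and 2, against 30387 and 29956 in WT. Of these 12 markers 3 lay above both WT libraries and 3 below (Krt20, Cdx2 and Car1), beside 14.3% and 21.4% of all genes tested. Of the 11 markers with a mean of at least 500, 2 lay above and 3 below, beside 22.7% and 12.8% of genes at that level. Car1, a colonocyte carbonic anhydrase, had 73552 and 42374 in Ythdf1 KO 1 and 2, against 102727 and 116128 in WT (-0.97 ± 0.24 SE, unadjusted p = 0.00702, adjusted p = 0.759). Markers of leukocytes summed to 966 and 540.1 in Ythdf1 KO 1 and 2, against 1554 and 1116 in WT, over 8 genes, with Lyz2 at 0 in both libraries labelled Ythdf1 KO, and those of muscle to 1886 and 1190.3, against 2245 and 1721 in WT, over 10 genes. Their part in the results was not tested. In bulk RNA, fewer cells of a type and less RNA per cell cannot be told apart.

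The respiratory chain passes electrons from NADH and succinate to oxygen and pumps protons across the inner mitochondrial membrane. Complex I takes electrons from NADH and complex II from succinate, ubiquinone carries them to complex III, cytochrome c carries them on to complex IV, and complex V uses the proton gradient to make ATP. A few core subunits of these complexes are encoded in mitochondrial DNA and the others in the nucleus, and colonocytes are known to depend on this machinery to oxidise butyrate. No mitochondrially encoded transcript was analysed here.

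Promoters of respiratory chain genes are known for sites of nuclear respiratory factor 1 (NRF1) and of ETS factors such as GABPA. RefSeq promoters (build GRCm38.p6) were matched by gene ID for 67 of the 80 members, and the 250 bases before the promoter's transcript start were searched on both strands. Each member kept 1 promoter, the nearest to the start of its kept transcript. That start was 3507 bases away for Atp5d, 985 for Atp5f1 and 538 for Ndufa13. The full set of 32851 promoters was not reduced to 1 per gene or matched for level or base composition, so the shares are only set side by side. The letters GCGCANGCG, taken for NRF1, occurred in 13 of the 67 (19.4%), against 5.16% of all 32851 promoters of the same length. CCGGAAG, taken for ETS factors, occurred in 11 (16.4%), against 6.91%, and AAGATGGC, taken for YY1, in 1 (1.49%), against 1.56%. The sequences below are those of members with the smallest p on the higher side (Ndufa4, Ndufv3) and on the lower side (Ndufa5, Atp5g2) that had a promoter in the table, and of Sdha, whose window held 3 NRF1 matches. Capitals mark matches to any of these letters on either strand, each is written 5′ to 3′ on the strand of its gene, and a match is a description and not a binding site.
Ndufa4, chr6:11907451-11907700, minus strand: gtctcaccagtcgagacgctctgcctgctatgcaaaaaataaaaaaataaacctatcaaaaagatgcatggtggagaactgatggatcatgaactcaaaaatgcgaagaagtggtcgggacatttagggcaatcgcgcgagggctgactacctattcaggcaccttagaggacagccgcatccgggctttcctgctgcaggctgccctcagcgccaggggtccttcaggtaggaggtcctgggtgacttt
Ndufv3, chr17:31519865-31520114, plus strand: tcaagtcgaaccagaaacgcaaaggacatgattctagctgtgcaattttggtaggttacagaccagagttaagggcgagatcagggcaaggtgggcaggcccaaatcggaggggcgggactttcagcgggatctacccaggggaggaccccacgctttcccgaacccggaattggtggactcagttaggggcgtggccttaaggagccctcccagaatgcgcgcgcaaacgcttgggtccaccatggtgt
Ndufa5, chr6:24527691-24527940, minus strand: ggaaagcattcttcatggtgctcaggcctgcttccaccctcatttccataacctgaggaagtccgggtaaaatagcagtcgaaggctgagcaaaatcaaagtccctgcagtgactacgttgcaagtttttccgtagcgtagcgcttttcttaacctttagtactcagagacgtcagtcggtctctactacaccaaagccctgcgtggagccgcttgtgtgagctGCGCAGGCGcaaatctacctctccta
Atp5g2, chr15:102671048-102671297, minus strand: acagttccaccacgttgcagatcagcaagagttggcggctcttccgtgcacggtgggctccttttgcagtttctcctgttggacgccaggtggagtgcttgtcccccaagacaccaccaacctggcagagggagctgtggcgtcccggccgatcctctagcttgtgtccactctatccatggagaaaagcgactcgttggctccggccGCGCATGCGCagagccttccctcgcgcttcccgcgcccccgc
Sdha, chr13:74350241-74350490, minus strand: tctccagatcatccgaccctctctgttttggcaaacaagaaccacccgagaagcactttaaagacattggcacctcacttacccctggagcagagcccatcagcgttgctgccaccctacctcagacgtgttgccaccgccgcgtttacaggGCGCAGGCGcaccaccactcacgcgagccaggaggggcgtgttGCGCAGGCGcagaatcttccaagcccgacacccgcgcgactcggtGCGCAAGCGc
Both NRF1 matches of Atp5g2 overlap, 1 on each strand, the Ndufa5 window held 1 match near its 3′ end, and the windows of Ndufa4 and Ndufv3 held none of the searched letters.

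Across the 80 members, no subunit passed the test between the libraries labelled Ythdf1 KO and WT, and most members differed little. In limma-trend on log2(value + 1), 0 of 80 members had an adjusted p under 0.05 (the smallest was 0.759), and 0 of 23116 genes tested did (0%). An unadjusted p under 0.05 was found for 0 members, against 5.44% of all genes tested. edgeR on the recovered reads also called 0 members and 0 genes (0%), with 0 members at an unadjusted p under 0.05, against 4.59% of all genes. DESeq2 called 0 members, against 6.22% of all genes, with 7 members at an unadjusted p under 0.05, against 17% of all genes. In the authors' deposited table, 0 of 138 member transcripts had a q-value under 0.05 (the smallest was 0.116), while 4.96% of the genes tested did by their kept transcript. The number of libraries limits these tests, and an exact permutation test of 2 against 2 cannot go below 0.333.

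The median log2 difference of the members was -0.0049, against -0.09 over all genes tested. At a mean of at least 500 the order was the other way, with -0.04 over 69 members and 0.07 over 7431 genes. Of the members, 91.2% (73 of 80) had a log2 difference within 0.5 of 0, against 45.3% of all genes tested. Level bears on that comparison, since 69 of the 80 members had a mean of at least 500. Among those 69 members 97.1% lay within 0.5, against 82.5% of the 7431 genes with a mean that high, and among the 11 members with a lower mean 54.5% did. Both libraries labelled Ythdf1 KO lay above both WT libraries for 11 members (13.8%), against 14.3% of all genes tested, and below both for 9 members (11.2%), against 21.4%. Where the mean reached 500 or more, the shares of genes were 22.7% above and 12.8% below, and 8 of the 69 members (11.6%) lay above and 7 (10.1%) below. Groups thus overlapped for 60 members.

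**Figure D1:**
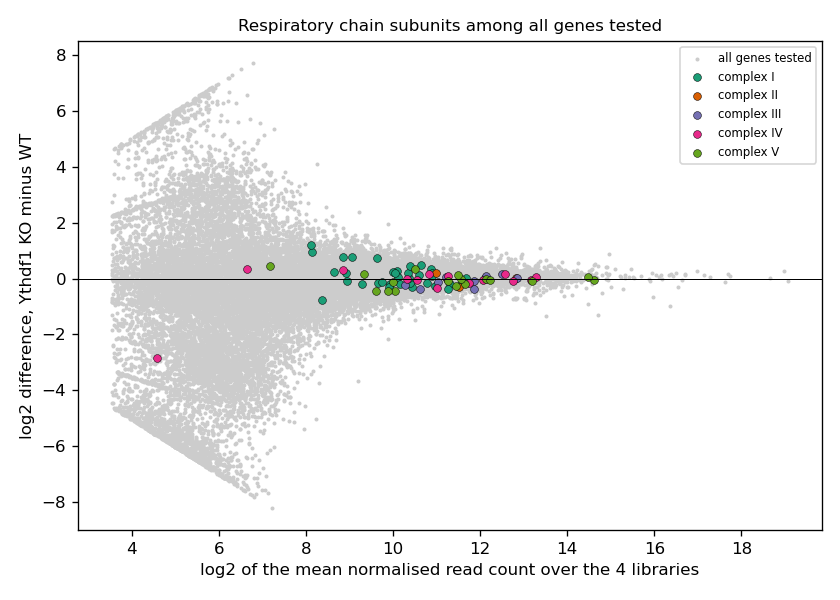
Each point is a gene, with the log2 of its mean normalised read count over the 4 libraries on the horizontal axis and the log2 difference (Ythdf1 KO minus WT) on the vertical axis. The 80 members, coloured by complex, lie close to 0 within the grey cloud of 23116 genes, and their spread is wider at low levels, where Cox4i2 stands at -2.84.

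Complex I, the entry point for NADH, had 8 members above both WT libraries and 3 below, and none passed the test. Of its 36 members, 29 had a mean of at least 500, and of these 6 lay above and 2 below, beside 22.7% and 12.8% of all genes at that level. The median log2 difference of the 36 was 0.05, with a range of -0.77 to 1.19. The 7 core subunits had a median of 0.10 and the 29 accessory ones 0.04, so both sets centred near 0. By its name Ndufa4 is counted among these 29 accessory subunits and among the 8 members above both WT libraries. No test was run on these counts.

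Among the core subunits of the NADH module, Ndufs1, the largest and a carrier of iron-sulphur clusters, had the lower values in the libraries labelled Ythdf1 KO. Ndufs1 (gene ID 227197, NM_001160038.1, mm10 chr1:63143592-63176822) had normalised read counts of 2079.6 and 2226 in Ythdf1 KO 1 and 2, against 2814 and 2740.1 in WT 1 and 2. The groups did not overlap, and the log2 difference was -0.37 ± 0.19 (SE, adjusted p = 0.759). All 5 listed Ndufs1 transcripts had deposited log2 fold changes between -0.41 and -0.29 in the authors' deposited table, and these transcripts share most of their reads. A gene on the other strand, Ino80dos, overlaps Ndufs1, and nothing states whether counting used strand. Ndufv1, which binds NADH and the flavin, had 2653 and 2890.1 in the libraries labelled Ythdf1 KO, against 2476 and 3997 in WT. Its WT values alone spanned more than the difference of the means. Ndufv2, another iron-sulphur subunit, had 1566 and 1666, against 1617 and 1318 in WT, with overlapping groups.

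The core subunits of the ubiquinone module had a median log2 difference of 0.15, with none past the test. Ndufs3 had 1974 and 2093 in the libraries labelled Ythdf1 KO, against 1798 and 1738 in WT. Its groups did not overlap (0.20 ± 0.21 SE, adjusted p = 0.851). Ndufs7, which carries the last iron-sulphur cluster before ubiquinone, had 2236 and 1706 in the libraries labelled Ythdf1 KO, against 1586 and 2082 in WT. Ndufs8, another iron-sulphur subunit, had 1399 and 879 in the libraries labelled Ythdf1 KO, against 732 and 1249.9 in WT. For both Ndufs7 and Ndufs8, Ythdf1 KO 1 and WT 2 were the higher library of their group, and the groups overlapped.

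Accessory subunits stabilise complex I and take no part in electron transfer themselves, and 4 of them, with Ndufa4, gave the smallest p on the higher side. Ndufa4 (gene ID 17992, NM_010886.2, mm10 chr6:11900373-11907446) was first named for complex I and is now placed with complex IV. It had normalised read counts of 873 and 1104 in the libraries labelled Ythdf1 KO, against 641 and 540.1 in WT. Both values lay above both WT values, averaging 988 ± 164 in Ythdf1 KO and 591 ± 71.6 in WT (SD, n = 2 each), or 1.67 times as much. On the log2 scale this was 0.74 ± 0.32 (SE; adjusted p = 0.759), and in the authors' deposited table q was 0.13. Its paralogue Ndufa4l2, known as a hypoxia-induced gene, was not listed.

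Ndufc1, a small membrane subunit, had 655 and 518 in the libraries labelled Ythdf1 KO, against 343 in each WT library. Ndufb3, of the distal membrane arm, had 322 and 423, against 190.5 and 194 in WT. Both pairs of WT libraries were nearly equal, and both genes lay above them. The log2 differences were 0.76 ± 0.40 for Ndufc1 and 0.94 ± 0.51 for Ndufb3 (SE, adjusted p = 0.759 and 0.762).

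Ndufb5, also of the membrane arm, had 1538 and 1541 in the libraries labelled Ythdf1 KO, against 1165 and 1113 in WT. Ndufv3, an accessory subunit of the NADH module, had 2039.8 and 1680.0, against 1386 and 1278 in WT. Groups did not overlap for either gene, at log2 differences of 0.43 ± 0.24 and 0.48 ± 0.24 (SE, adjusted p = 0.762 and 0.759). Ndufb9 (2368 and 1812, against 1585 and 1713 in WT) and Ndufa7 (1170.2 and 1230.0, against 1045 and 951) lay above WT as well, at adjusted p of 0.815 and 0.842.

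On the lower side stood Ndufa5, an accessory subunit of the ubiquinone module, and Ndufb7. Ndufa5 had 203 and 291 in the libraries labelled Ythdf1 KO, against 471 and 365 in WT (-0.77 ± 0.49 SE, adjusted p = 0.795). Ndufb7 had 1214 and 929, against 1217 and 1221 in WT, so its separation rests on a narrow gap between Ythdf1 KO 1 and WT 1. By prefix, 2 of 13 Ndufa, 3 of 10 Ndufb and 1 of 2 Ndufc genes lay above both WT libraries. So did 1 of 8 Ndufs and 1 of 3 Ndufv genes, beside 14.3% of all genes tested. Below both lay 1 Ndufa, 1 Ndufb and 1 Ndufs gene, beside 21.4%.

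Some accessory subunits differed more within a group than between the groups, and they are named here after their values were seen. Ndufb4 had 339 and 321 in the libraries labelled Ythdf1 KO, against 50.7 and 406 in WT, and Ndufc2 had 739.7 and 422, against 131 and 829.9. In both, WT 1 alone was low, and the log2 differences of 1.19 ± 1.01 and 0.76 ± 0.88 (SE) turned to -0.30 and -0.57 without WT 1. Ndufs5 was split in the other group, with 272 and 1005 in Ythdf1 KO 1 and 2, against 497 and 726 in WT.

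**Figure D2:**
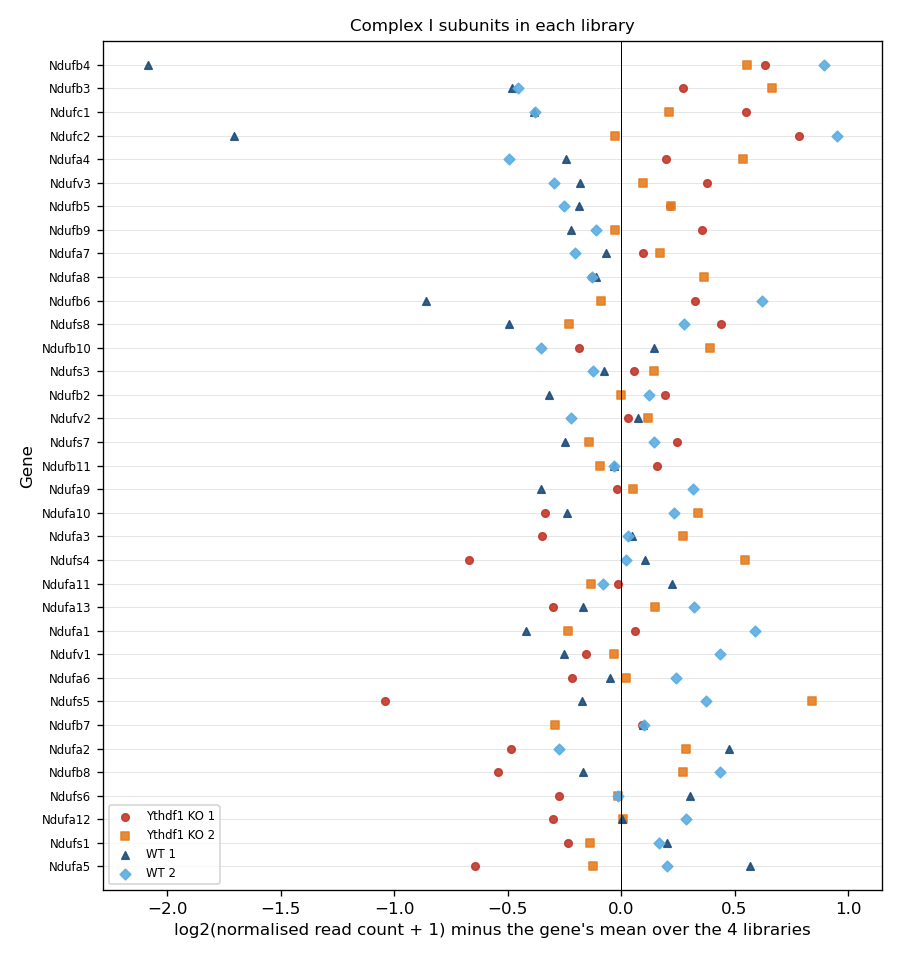
Rows are 35 of the members named for complex I, ordered by log2 difference between the labelled groups. Points give log2(normalised read count + 1) in each library minus the gene's mean over the 4 libraries, red circles and orange squares for Ythdf1 KO 1 and 2 and dark triangles and light diamonds for WT 1 and 2. Ndufb4 and Ndufc2 are among the rows with the highest differences although only WT 1 is low, while for Ndufb3, Ndufc1 and Ndufa4 both WT libraries lie left of both others.

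Complex II, succinate dehydrogenase, links the citric acid cycle to the chain and is encoded wholly in the nucleus. Its 4 subunits had log2 differences of -0.32 to 0.22, none past the test. Sdha, the flavoprotein that oxidises succinate, had 6584 and 8012 in the libraries labelled Ythdf1 KO, against 6705 and 7578 in WT. Sdhb, the iron-sulphur subunit, had 2982 and 2271, against 2989 and 3515 in WT.

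Sdhb alone among the 4 had groups that did not overlap (-0.32 ± 0.22 SE, adjusted p = 0.813), by a gap of 7 normalised reads. The membrane anchor Sdhc had 2750.4 and 1606 in the libraries labelled Ythdf1 KO, against 1339 and 2443 in WT, and the other anchor, Sdhd, 2757 and 2052, against 2169.8 and 2616 in WT. Both were higher in Ythdf1 KO 1 than in Ythdf1 KO 2 and higher in WT 2 than in WT 1. A listed transcript of another gene on the same strand overlaps Sdhc, so its reads may be shared.

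Complex III, the cytochrome bc1 complex, showed the narrowest range of the complexes with over 4 members, from -0.39 to 0.17 on the log2 scale, with a median of -0.08 over 9 genes. Its Rieske, cytochrome and core subunits gave overlapping groups. Uqcrfs1, the Rieske iron-sulphur protein, had 5040.4 and 4242 in the libraries labelled Ythdf1 KO, against 3988 and 4605 in WT. Cyc1, cytochrome c1, had 6125 and 6047, against 4626 and 6307 in WT. Uqcrc1, a core protein, had 7007 and 7674, against 6717 and 7949.7 in WT. The log2 differences were 0.11, 0.17 and 0.0052.

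Uqcrq, a small subunit near the ubiquinone site, was the only complex III member outside the WT range in both libraries labelled Ythdf1 KO. Uqcrq (gene ID 22272, NM_025352.3, mm10 chr11:53427922-53430831) had 2959 and 3527 there, against 4221 and 4100.0 in WT. It averaged 3243 ± 402 in Ythdf1 KO and 4161 ± 85.7 in WT (SD, n = 2 each), or 0.779 times the WT mean, and the log2 difference was -0.36 ± 0.18 (SE, adjusted p = 0.759). Uqcr11 had 1795 and 974, against 1560.0 and 1916 in WT, where only Ythdf1 KO 2 was low.

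Complex IV, cytochrome c oxidase, has several nuclear subunits with a widespread isoform and one of restricted tissues. Of the 14 members named for it, 1 lay above both WT libraries and 2 below, beside 14.3% and 21.4% of all genes tested. Their median log2 difference was -0.03. Cox4i1, the widespread form of subunit 4, had 10195 and 7884 in the libraries labelled Ythdf1 KO, against 9147 and 9519.6 in WT. Cox4i2, known from lung, had 0 and 23.2, against 23.7 and 49.5 in WT. Transcript lengths were not available, so levels of 2 genes are not compared per length. The Cox4i2 groups nearly meet, with Ythdf1 KO 2 and WT 1 nearly equal, and the log2 difference of -2.84 ± 2.72 (SE, adjusted p = 0.838) was -0.55 without Ythdf1 KO 1.

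For subunits 6 and 8 the widespread isoforms had overlapping groups as well. Cox6a1 had 9176 and 11229 in the libraries labelled Ythdf1 KO, against 8739 and 10946 in WT. Cox6b1 had 4157 and 4118, against 3557 and 5264 in WT, and Cox8a had 6406 and 6941, against 6264 and 7945 in WT. Cox6b2, the testis form, had 132 and 91.0, against 69.9 and 107 in WT. Its 6 listed transcripts had log2 fold changes on both sides of 0, from -1.32 to 1.01, in the authors' deposited table. The muscle forms Cox6a2 and Cox8b and the testis forms Cox7b2 and Cox8c were not listed in the table, which holds no transcript with a mean under 11.6.

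Cox7a1, the heart and muscle form of subunit 7a, was listed, with 292 and 706 in Ythdf1 KO 1 and 2, against 656 and 204 in WT. The widespread form Cox7a2 had 1714 and 878, against 949 and 1603 in WT. Within each group the library with more Cox7a1 had less Cox7a2, Ythdf1 KO 2 and WT 1 being the pair with more Cox7a1. Across the 4 libraries the summed muscle markers were highest in WT 1 and lowest in Ythdf1 KO 2. Any part of muscle RNA in the Cox7a1 values was not tested.

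Cox7a2l, which helps join complexes III and IV in supercomplexes, had 1688 and 1259 in the libraries labelled Ythdf1 KO, against 1747 and 1294 in WT. Cox7b had 1381 and 2315, against 2145 and 2399.8 in WT. Cox5b, a zinc-binding subunit, had 6853 and 6167, against 5621 and 5839.6 in WT. Of the members named for complex IV, which leaves out Ndufa4, Cox5b alone lay above both WT libraries in both (0.18 ± 0.15 SE, adjusted p = 0.819). Cox5a lay below, at 3409 and 3079, against 3644 and 3652 in WT (-0.17 ± 0.18 SE, adjusted p = 0.848). Each of these 2 differences was close to its standard error.

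Complex V, ATP synthase, had a median log2 difference of -0.06 over 17 genes and a range of -0.44 to 0.43. Atp5a1 and Atp5b encode the alpha and beta subunits of the catalytic head. Atp5a1 had 23738 and 25205 in the libraries labelled Ythdf1 KO, against 21931 and 29036 in WT, and Atp5b had 22122 and 24470.1, against 21366 and 23294 in WT. Both sets overlapped, with log2 differences of -0.04 ± 0.15 and 0.06 ± 0.12 (SE). Atp5c1, the gamma subunit that turns inside the head, had 2894 and 3113, against 3159 and 3777 in WT, below both WT libraries (-0.20 ± 0.19 SE, adjusted p = 0.835).

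The membrane ring of ATP synthase is built from subunit c, which 3 genes encode with the same mature protein, and they stood differently. Atp5g1 had 2596 and 3391 in the libraries labelled Ythdf1 KO, against 2991 and 2505 in WT, and Atp5g3 had 3919.7 and 5087, against 4266 and 4664 in WT. Atp5g2 (gene ID 67942, NM_026468.2, mm10 chr15:102662868-102671047), whose promoter is shown above, had 718 and 878, against 1081 in each WT library. Atp5g2 alone of these 3 lay outside the WT range in both (-0.44 ± 0.29 SE, adjusted p = 0.799), while the others had log2 differences of 0.12 ± 0.22 and 0.0015 ± 0.19. The difference between the 3 genes was not tested.

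Atp5l, subunit g of the membrane part, lay on the other side, with 1741 and 1505 in Ythdf1 KO 1 and 2, against 1198 and 1339.8 in WT (0.35 ± 0.24 SE, adjusted p = 0.812). Atp5e, the epsilon subunit, had 783 and 871, against 666 and 1885 in WT, where WT 2 stood apart from the 3 other libraries. Atp5s and Atp5sl carry the name but are not counted as subunits of the enzyme. They had 141 and 195, against 112 and 134 in WT, and 1065 and 894, against 1261 and 889 in WT, and the median of complex V without them was also -0.06.

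**Figure D3:**
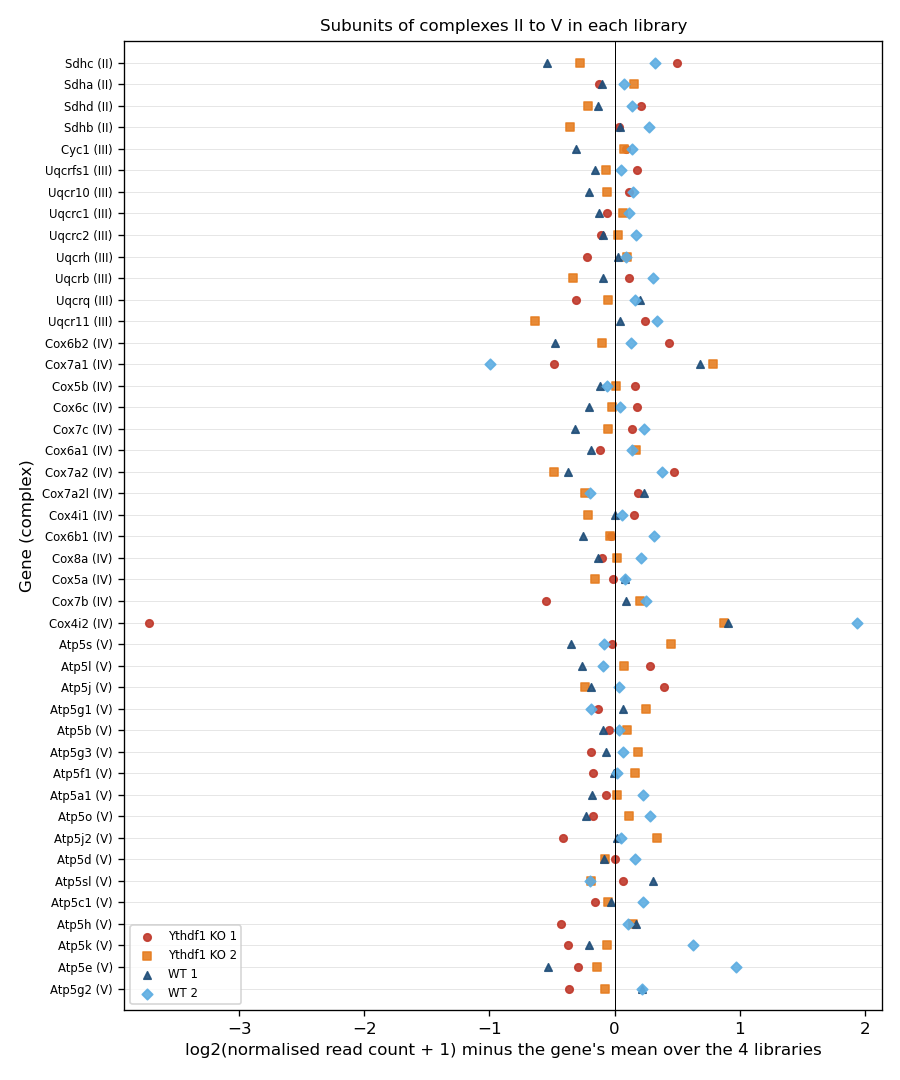
Rows are the members of complexes II to V, ordered within each complex by log2 difference, with log2(normalised read count + 1) in each library relative to the gene's mean over the 4 libraries. Red circles and orange squares are Ythdf1 KO 1 and 2, dark triangles and light diamonds WT 1 and 2. Most rows interleave the groups, Cox4i2 spans from 0 to 49.5 normalised reads, and WT 2 lies to the right of WT 1 in most rows.

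The 2 WT libraries differed in one direction for most members. WT 2 exceeded WT 1 for 59 of 80 members (73.8%), against 49.5% of all genes tested and 53.9% of those with a mean of at least 500. The median log2 gap (WT 2 minus WT 1) was 0.23 over the members. It was present in complexes II (0.25, with 4 of 4 higher in WT 2), III (0.27, 8 of 9), IV (0.29, 12 of 14) and V (0.16, 14 of 17), and stood at 0.01 in complex I (21 of 36). The median gap between Ythdf1 KO 2 and Ythdf1 KO 1 was 0.09, positive in complex V (0.29, 13 of 17 higher in Ythdf1 KO 2) and negative in complex II (-0.41, 1 of 4).

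As a size without sign, the median difference between the labelled groups was 0.19 over the members, against 0.31 between the 2 libraries labelled Ythdf1 KO and 0.29 between the 2 WT libraries. A difference of 2 means varies less than a gap between 2 single libraries, so these sizes are set side by side only as a description. The share of recovered reads in the members was 0.897% (95% Wilson interval 0.893 to 0.901) and 0.920% (0.917 to 0.924) in Ythdf1 KO 1 and 2, against 0.876% (0.872 to 0.880) and 1.02% (1.01 to 1.02) in WT 1 and 2. The WT shares lay on both sides of the others. These intervals cover counting error only.

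The members' median, -0.0049 with all 4 libraries, took either sign depending on which library was left out. It was -0.13 without WT 1 and 0.12 without WT 2, and 0.03 and -0.03 without Ythdf1 KO 1 and 2. Without WT 1 the remaining libraries put 35 members below WT and 16 above, and without WT 2 they put 37 above and 15 below. Without Ythdf1 KO 1 the counts were 27 above and 18 below, and without Ythdf1 KO 2 they were 23 above and 29 below. With a library left out, groups separate more easily, and the shares over all genes were not counted for these fits. These counts are therefore no result about the members. Pearson's correlation of log2 values over the 80 members, which are not independent replicates, was 0.934 between the libraries labelled Ythdf1 KO and 0.937 between the WT libraries. Across the groups it lay between 0.904 and 0.965. Over the 69 members with a mean of at least 500 the values were 0.921, 0.925 and 0.919 to 0.960. Over all 7431 genes at that level they were 0.910, 0.936 and 0.908 to 0.930. In each of these sets some libraries of unlike label correlated more closely than the 2 labelled Ythdf1 KO.

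**Figure D4:**
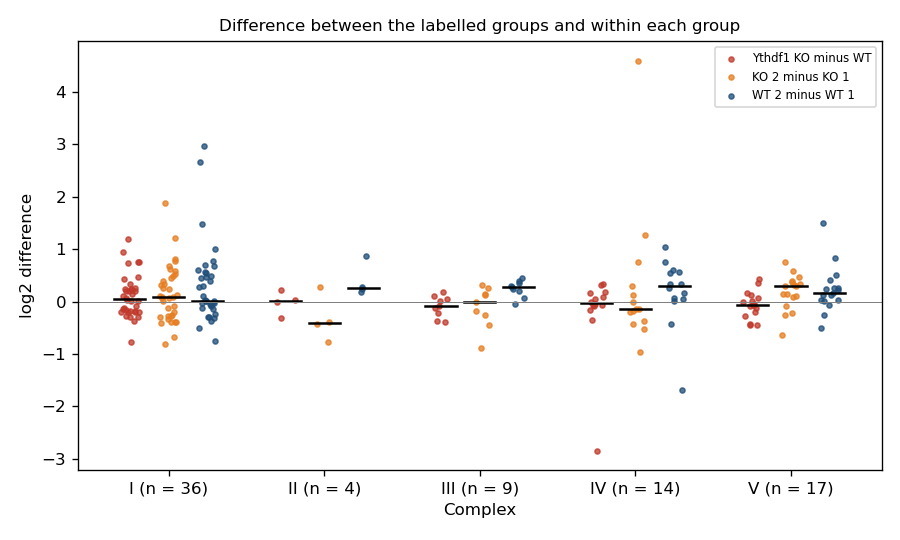
For each complex, points are members and black bars are medians, on the log2 scale, of the difference between the labelled groups (red), the gap Ythdf1 KO 2 minus KO 1 (orange) and the gap WT 2 minus WT 1 (blue). The red medians stay between -0.08 and 0.05, while the blue medians of complexes II to V lie between 0.16 and 0.29.

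Assembly factors and regulators, from lists written with earlier results of these data known, held no gene past the test. Of 14 complex I assembly factors, 12 had a mean under 500, and 57.1% of the 14 lay within 0.5 of 0 on the log2 scale, beside 54.5% of subunits with a mean under 500. Of the 14, 4 lay above both WT libraries and 1 below, beside 14.3% and 21.4% of all genes, with a median log2 difference of 0.01. Ndufaf4 had 532 and 396 in the libraries labelled Ythdf1 KO, against 176 and 265 in WT (1.09 ± 0.50 SE, adjusted p = 0.759), and Ndufaf1 had 488 and 186, against 149 and 96.9. Ndufaf6 had 329 and 251, against 5.64 and 146 in WT, where WT 1 was near 0. Of 10 factors for complexes II and III, 4 lay above and 1 below, beside the same 14.3% and 21.4%, with a median of 0.13. Bcs1l, the chaperone that inserts the Rieske protein, had 291 and 579, against 85.7 and 189 in WT (1.68 ± 0.68 SE, unadjusted p = 0.0483, adjusted p = 0.759).

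Of 24 assembly factors of complex IV, 9 lay above both WT libraries and 3 below, beside 14.3% and 21.4% of all genes. The median log2 difference of the 24 was 0.18. Of the 11 with a mean of at least 500, 5 lay above and 2 below, beside 22.7% and 12.8% of genes at that level. No member of this list had an unadjusted p under 0.05. Cox15, of haem A synthesis, had 1469.8 and 1457 in the libraries labelled Ythdf1 KO, against 1238 and 933 in WT, and Cmc2 had 249.2 and 405, against 105 and 184 in WT. Cox18, an insertase for a mitochondrially encoded subunit, lay below, at 294 and 323, against 549 and 446 in WT. Of 3 factors of complex V, 1 lay above and 1 below, beside the same 14.3% and 21.4% of all genes.

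Regulators of mitochondrial gene expression had a median log2 difference of -0.08 over 16 genes. Of these, 1 lay above both WT libraries and 3 below, beside 14.3% and 21.4% of all genes. Of the 11 with a mean of at least 500, 0 lay above and 3 below, beside 22.7% and 12.8% of genes at that level. Ppargc1a, a coactivator of mitochondrial biogenesis, had 2778 and 2004 in the libraries labelled Ythdf1 KO, against 2107 and 1906 in WT. Nrf1 had 811 and 615, against 599.6 and 966 in WT, Gabpa had 511 and 1017, against 769 and 618, and Tfam, which packages mitochondrial DNA, had 564 and 431, against 209 and 517. Groups of these 4 genes overlapped. Yy1, the other factor whose motif letters were searched, lay below both WT libraries, at 1608 and 1749 in Ythdf1 KO 1 and 2, against 1944 and 1962 in WT (-0.22 ± 0.21 SE, adjusted p = 0.842).

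Slirp was the regulator above both WT libraries, and its partner in stabilising mitochondrial mRNA, Lrpprc, was below. Slirp had 275 and 148 in the libraries labelled Ythdf1 KO, against 20.3 and 23.2 in WT, a log2 difference of 3.16 ± 1.18 (SE, unadjusted p = 0.0348, adjusted p = 0.759), with q = 0.013 in the authors' deposited table. Lrpprc had 1535 and 1379, against 1753 and 1803 in WT (-0.29 ± 0.23 SE, adjusted p = 0.819). Neither passed in limma-trend.

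**Figure D5:**
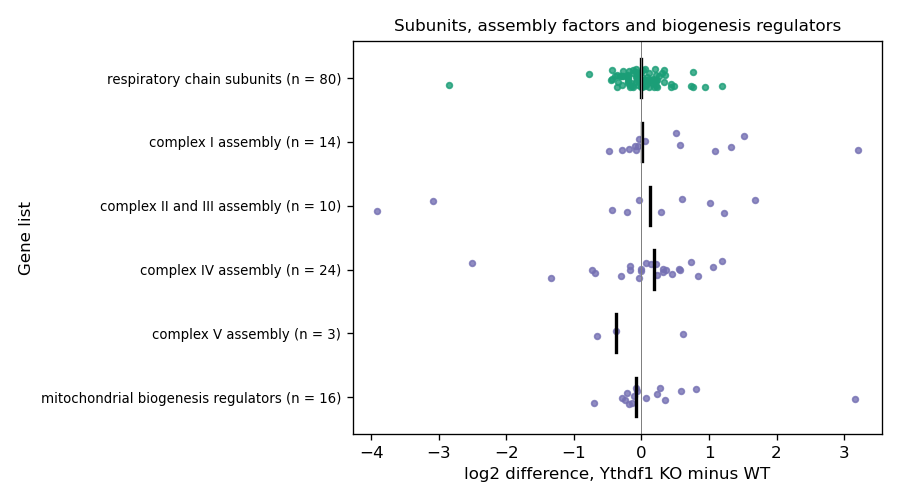
Points are genes and black bars are list medians of the log2 difference (Ythdf1 KO minus WT) for the 80 subunits, the assembly factors and the regulators. The subunits cluster near 0 with Cox4i2 at -2.84. The assembly lists spread from -3.92 (Lyrm7, at 0 in Ythdf1 KO 1) to 3.21 (Ndufaf6, at 5.64 in WT 1). Level bears on this, since 11 of the 80 subunits had a mean under 500. Of the assembly factors, 12 of 14 (complex I), 7 of 10 (II and III), 13 of 24 (IV) and 1 of 3 (V) did.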

How the data were processed

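The deposited signal of each RefSeq transcript (87526 transcripts, build mm10 per the submitters' processing notes) is a read count divided by a size factor: 100% of values were whole multiples, within 0.001, of 1 fixed step per library. Each transcript also has a p-value, a q-value and a log2 fold change that the authors deposited. The notes name Bowtie2 2.2.5, deepTools 3.3.0, HOMER 4.10, MACS2 2.1.0, CASAVA 1.8 and SAMtools 1.3.1 with no role or order. No counting program is named.

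The transcript with the highest mean stood for each gene. The 23116 genes that reached 1 in 2 or more libraries were fitted on log2(value + 1) in R 4.3.3 by robust limma-trend (limma 3.58.1), genotype label the only term, Benjamini-Hochberg adjusted over all genes, threshold 0.05. The added 1 shrinks log2 differences between low values. A single library near 0 can still give a larger difference of log2 means than of means. Cox4i2 had -2.84, beside a deposited log2 fold change of -1.66, and Ndufb4 1.19, beside 0.53. Recovered reads went through edgeR 4.0.16 and DESeq2 1.42.0 as alternatives. The limma-trend and edgeR fits, but not DESeq2, were also run on simulated counts. These had the same dispersion for all genes and changes larger than those of most members, so they do not test differences of the size seen here. Isoforms count the reads they share.

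Members and lists were chosen with earlier results of these data known. The values of 1 member are not reported here, though it stays in all counts and medians. Named members were core subunits, isoform pairs and the 5 smallest p on each side. Those with the highest and lowest level per complex were not chosen, since no transcript lengths were available. Others are named after their values were seen, such as those outside the WT range. There were 8 lists of related genes and 6 of markers. Medians of the log2 difference in the marker lists were 1.02 (nerve, 5 genes), 0.73 (erythroid, 5) and -0.64 (stroma and vessels, 8). Those of the other marker lists were -1.35 (leukocytes, 8), -0.54 (muscle, 10) and 0.11 (colon epithelium, 12). Same-numbered libraries did not deviate together (r = 0.022 over 7431 genes with a mean of at least 500). This cannot exclude a pairing by number, and no source used here states one.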

Additional observations from a re-analysis of the deposited data

How the results depend on the processing

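No member was called under any alternative tried: summed transcripts, no filter, a mean of at least 500, a pseudocount of 0.5 or 10, quantile or TMM scaling, edgeR, DESeq2, limma without a trend, the replicate block and each library left out. Over all genes tested DESeq2 called 1438 and limma without a trend 524, and leaving out 1 library gave 0 to 36. With the replicate number as a block, 0 genes and 0 members were called, the smallest adjusted p of a member was 0.755, 1760 genes had an unadjusted p under 0.05, and no call changed. The members' median ranged from -0.13 to 0.12 with 1 library left out, each within the pooled SD of library medians (0.129) of the main value, and was -0.085 with quantile scaling. Members below both WT libraries numbered 15 with quantile scaling. With 1 library left out, 15 to 35 members lay below and 16 to 37 above, since fewer libraries have to be passed. The shares over all genes were not counted in these settings, so the counts are no result about the members. DESeq2 called Coq10b and Slirp, at adjusted p of 0.0143 and 0.00788.

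Signs turned for log2 differences near 0 and for some farther from it, such as Ndufb4 (1.19 in the report), Ndufc2 (0.76), Tfam (0.58) and Cox6b2 (0.34), and the cause was not tested. Values were -0.0048 for Atp5g3 and -0.53 for Cox6b2 with summed transcripts, -0.040 for Atp5b, -0.085 for Atp5g3, -0.040 for Cox6a1, -0.045 for Sdha and -0.059 for Uqcrc1 with quantile scaling, 0.014 for Cox7a2 and 0.019 for Sdhd with TMM, 0.043 for Cox7a2, 0.084 for Ndufs5 and 0.028 for Sdhd with edgeR, and 0.041 for Cox7a2, 0.072 for Ndufs5 and 0.023 for Sdhd with DESeq2. With 1 library left out the lone library is assumed to vary like the other group. Ranges for members and regulators whose sign turned were Atp5a1 (-0.25 to 0.16), Atp5b (-0.012 to 0.13), Atp5e (-1.19 to 0.31), Atp5g1 (-0.076 to 0.31), Atp5g3 (-0.19 to 0.19), Atp5sl (-0.37 to 0.13), Cox4i1 (-0.24 to 0.13) and Cox6a1 (-0.11 to 0.22). Further such ranges were Cox6b1 (-0.35 to 0.22), Cox7a1 (-0.53 to 1.15), Cox7a2 (-0.49 to 0.47), Cox7a2l (-0.26 to 0.17), Cox7b (-0.72 to 0.029), Cox8a (-0.25 to 0.090), Cyc1 (-0.052 to 0.40) and Gabpa (-0.43 to 0.56). Those of the next genes were Ndufb4 (-0.30 to 2.68), Ndufc2 (-0.57 to 2.09), Ndufs5 (-1.14 to 0.74), Ndufs7 (-0.092 to 0.30), Ndufs8 (-0.17 to 0.60), Ndufv1 (-0.53 to 0.16) and Ndufv2 (-0.0022 to 0.29). The remaining ranges were Nrf1 (-0.45 to 0.24), Sdha (-0.11 to 0.17), Sdhc (-0.22 to 0.65), Sdhd (-0.22 to 0.21), Tfam (-0.068 to 1.24), Uqcrc1 (-0.12 to 0.13) and Uqcrfs1 (-0.015 to 0.23).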

Other observations

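Ubiquinone and cytochrome c carry electrons between the complexes, and other dehydrogenases feed ubiquinone directly. Of 11 genes of coenzyme Q synthesis, 2 exceeded both WT values in each Ythdf1 KO library and 4 were under both, beside 14.3% and 21.4% of all genes. The median log2 difference of the 11 was -0.12. Of the 7 with a mean of at least 500, 2 lay above and 2 below, beside 22.7% and 12.8% of genes at that level. Coq10b, which binds coenzyme Q, had 695 and 871 in the libraries labelled Ythdf1 KO, against 330.3 and 394 in WT (1.11 ± 0.38 SE, unadjusted p = 0.0241, limma-trend adjusted p = 0.759). In the authors' deposited table its q-value was 0.025. Coq7, a hydroxylase of the pathway, stood on the other side with 291 and 321, against 502 and 481 in WT. Pdss1, which builds the side chain, had 394 and 785, against 929.9 and 944 in WT.

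Of 7 other donors to ubiquinone, 1 lay above and 0 below, beside 14.3% and 21.4% of all genes, with a median of -0.0052. Sqrdl, the sulphide oxidoreductase of mitochondria, had 5861 and 4493 in the libraries labelled Ythdf1 KO, against 4909.9 and 6693 in WT. Gpd2, of the glycerol phosphate shuttle, had 2248 and 2369.8, against 1796 and 2240.3. Cycs, cytochrome c, had 2622 and 3123, against 3070.3 and 3288 in WT. Among the subunits and carriers outside the naming rule, 5 of 6 were listed, with a median of -0.10. Of these 5, 1 lay above both WT libraries and 0 below, beside 14.3% and 21.4% of all genes.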
